A study of Solea senegalensis with 15 samples.

Results

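The genes described here encode the receptors through which cells respond to neurotransmitters, namely glutamate, GABA, glycine, acetylcholine, dopamine, serotonin, noradrenaline and adrenaline, histamine and opioid peptides. They were chosen by the start of the gene symbol (gria, grik, grin, grid and grm for glutamate, gabr and gabbr for GABA, glra and glrb for glycine, chrn and chrm for acetylcholine, drd, htr, adra, adrb, hrh and opr). That match uses symbols only, but the set was chosen with earlier results of these data known. Of 106 genes whose symbols matched, 92 had at least 50 counts in at least 1 fish, and these 92 were among the 21227 genes tested. Of the tested genes 8460 carried only a locus number in place of a name, and any receptor gene among them was not covered. The symbol rule also took grid2ipa and grid2ipb, which encode scaffold proteins that bind a delta receptor and are not receptors themselves.

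The study measured RNA from the testis of the Senegalese sole, Solea senegalensis, a flatfish with semicystic spermatogenesis. All fish were 2-year-old males of the F1 generation of wild-caught parents. One group was injected with saline, one with 18 µg/kg of recombinant sole follicle-stimulating hormone (rFsh, labelled rssFSH) and one with 18 µg/kg of recombinant sole luteinizing hormone (rLh, labelled rssLH), given into the muscle once a week for 6 weeks. Counts of 5 fish per group were analysed, with 50722658 to 109801527 counts per fish and medians of 79879064 in saline, 61235708 in rFsh and 60916260 in rLh fish. Levels are given as CPM, counts scaled to the size of each library, and values are listed by fish number, which runs 63, 64, 66, 67 and 68 for saline, 61, 62, 64, 68 and 69 for rFsh and 63, 64, 66, 67 and 68 for rLh.

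Receptors for neurotransmitters are of 2 kinds. Ligand-gated channels (AMPA, kainate and NMDA receptors for glutamate, GABA-A, glycine and nicotinic receptors, and serotonin type 3) are built of several subunits and open when the transmitter binds. The others (metabotropic glutamate, GABA-B, muscarinic, dopamine, most serotonin, adrenergic, histamine and opioid receptors) are single chains or pairs that signal through G proteins. Both kinds are best known from nerve and muscle, and some are also found on testicular somatic and germ cells of vertebrates.

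Receptor genes were read at low counts. Their mean count per fish had a median of 286.7, against 1250 over all tested genes. In 68 of the 92 the minimum of 50 counts was reached in every fish, 25 had a mean under 100 counts and 13 had a mean over 1000. Reads on the 92 genes summed to 1210 ± 72.3 CPM in saline, 1226 ± 48.5 CPM in rFsh and 1127 ± 60.5 CPM in rLh fish (mean ± SD, n = 5). The NMDA class took 23.3% of these reads and the metabotropic glutamate class 17.9%. The genes grin2da, grm1a, adra1aa, grid2ipb, grik5 and gabbr1a together took 54.2% of them. Read shares were not corrected for transcript length and give no order of transcript levels between genes.

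The 14 matching genes under the minimum had at most 48 counts in any fish. They were adra1d, adra2b, adra2c, adrb1, chrm4b, chrna10a, chrna6, chrna9a, chrnb1l, gabra4, gabrr2a, htr2b, htr3a and htr6. Of these, chrm4b and htr2b had no count in any of the 15 fish. The class most reduced by the minimum was the alpha adrenergic class, with 3 of its 6 genes left.

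**Figure D1:**
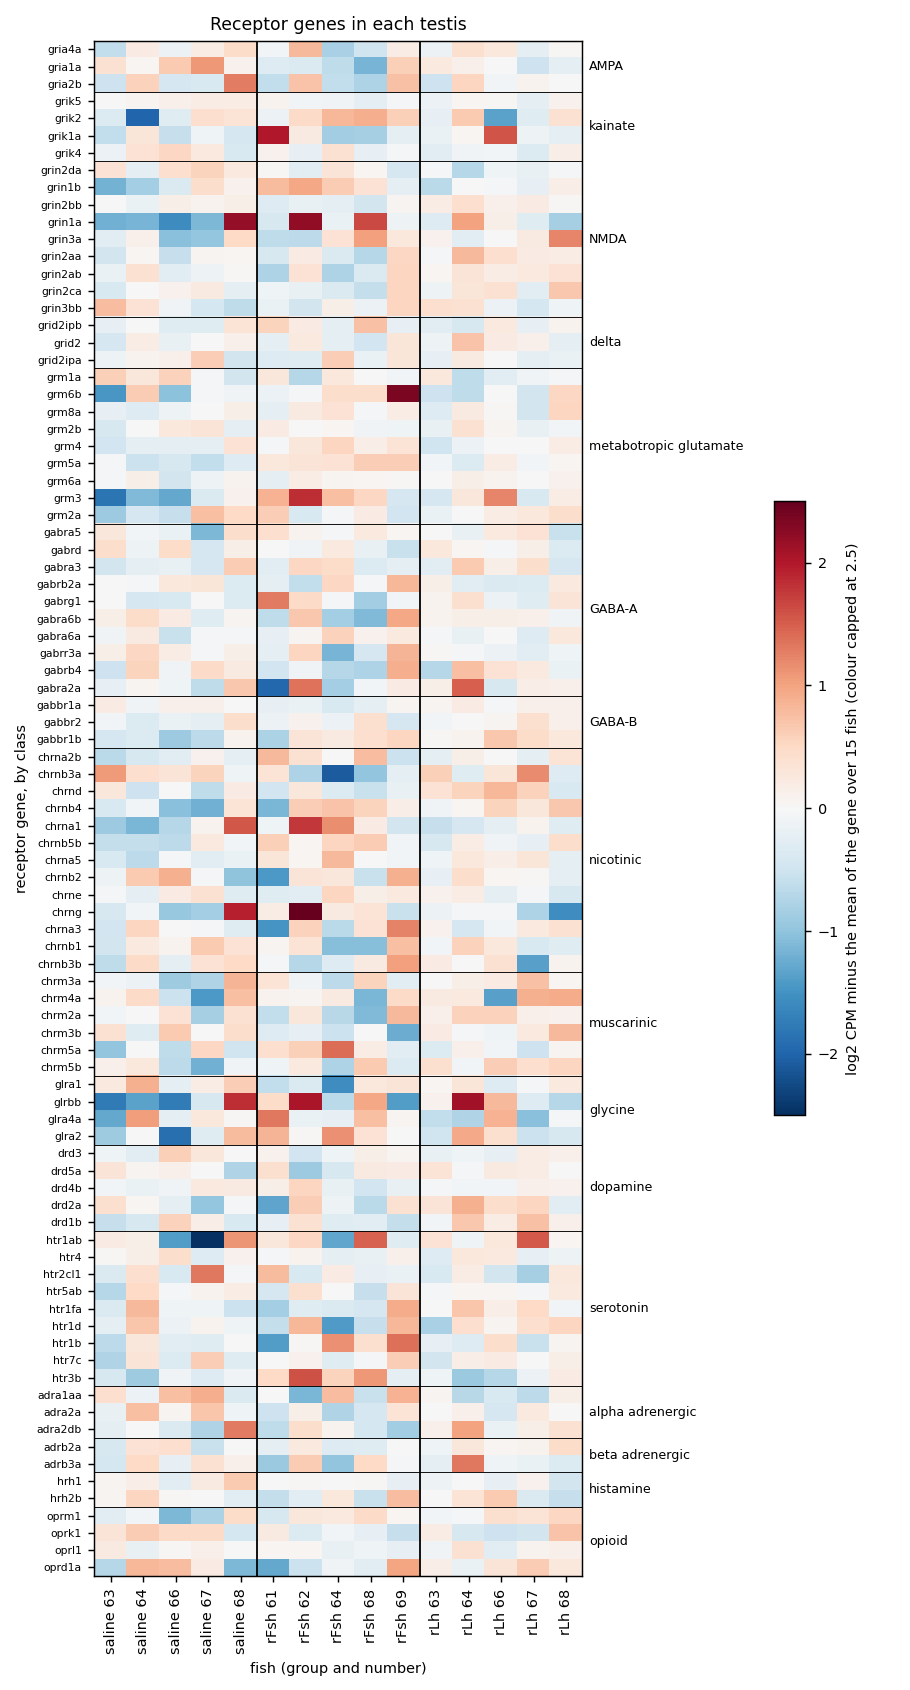
Each row is a receptor gene, grouped by class (89 of the 92 are shown), and each column is 1 fish. Colour gives log2 CPM minus the mean of the gene over the 15 fish (red higher, blue lower, capped at 2.5). The row of grm5a is the one in which every rFsh fish lies above every saline and every rLh fish, and grin1a, glrbb, chrna1 and chrng are high in saline 68 and rFsh 62. Of these, chrng reached the count minimum in saline 68 and rFsh 62 alone.

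The first comparison asks which receptor genes differed after 6 weeks of rFsh. One receptor gene passed the test. It was grm5a, the gene of metabotropic glutamate receptor 5, which signals through Gq and the release of calcium from stores. Across all genes 10 passed, 9 of them higher in rFsh, so that 0.0471% of tested genes were called and 0.0424% were called higher. At an unadjusted p under 0.05 the receptor genes numbered 19 of 92 (20.7%), 12 higher and 7 lower, against 17.2% of all tested genes. The median log2 fold change was 0.01 over the receptor genes and 0.01 over all genes.

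The gene grm5a (LG13, 3838311 to 3861142 in assembly IFAPA_SoseM_1, with no other annotated gene over its span) was at 9.14, 6.41, 7.11, 6.09 and 7.44 CPM in saline fish. In rFsh fish it was at 11.2, 11.7, 11.96, 14.3 and 14.3 CPM, and in rLh fish at 8.91, 7.40, 10.6, 8.96 and 9.61 CPM. Every rFsh fish was thus above every saline fish and every rLh fish, while saline and rLh fish overlapped. The means were 7.24 ± 1.19 CPM in saline, 12.7 ± 1.49 CPM in rFsh and 9.10 ± 1.18 CPM in rLh fish (SD, n = 5). It rose in rFsh fish, with a log2 fold change of 0.80 ± 0.13 (SE) and an adjusted p of 0.0466 (edgeR). Among the 92 genes it was the only one whose rFsh and saline groups did not overlap in either direction, against 1.72% of all tested genes. Higher in rFsh without overlap were 0.876% of all tested genes.

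The call of grm5a lay close to the threshold. With each of the 15 fish left out in turn, the log2 fold change stayed between 0.75 and 0.90, and the adjusted p ranged from 0.0110 to 0.168. It passed 0.05 in 6 of the 15 fits, those without rFsh 61, rFsh 62, rFsh 69, rLh 64, saline 63 or saline 68. The call was lost without rFsh 64 (adjusted p = 0.122), rFsh 68 (0.111), rLh 63 (0.0934), rLh 66 (0.0626), rLh 67 (0.0714), rLh 68 (0.0742), saline 64 (0.113), saline 66 (0.168) or saline 67 (0.108). Over all 29 alternatives tried, 12 gave a call, the direction was the same in each, and the adjusted p ranged from 8.0e-06 (DESeq2, a second count test) to 0.220 (a fit of the saline and rFsh fish alone).

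**Figure D2:**
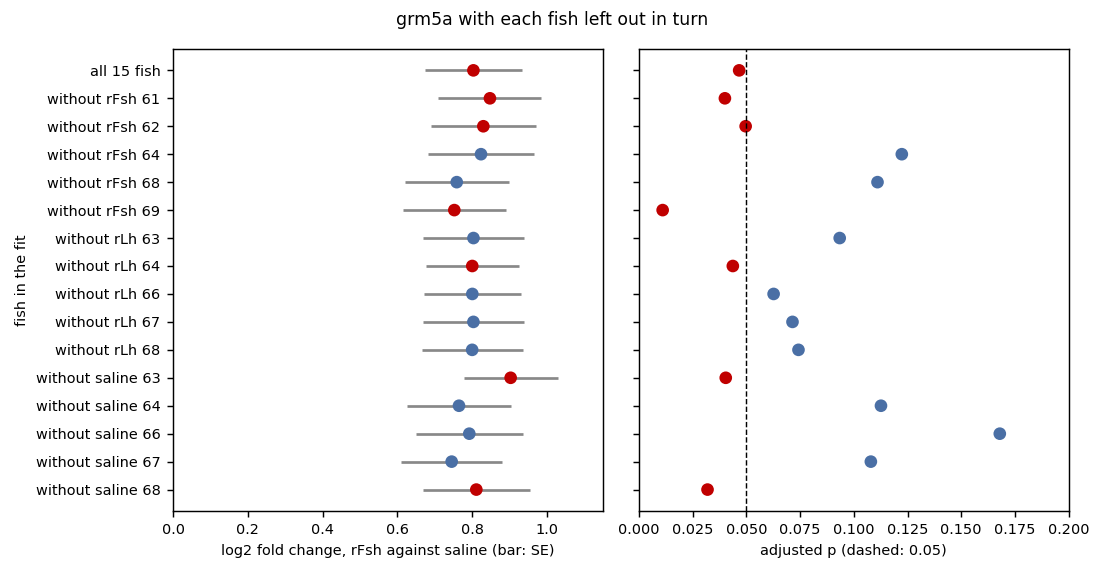
The left panel gives the log2 fold change of grm5a between rFsh and saline fish (bar, SE) with all 15 fish and with each fish left out in turn, and the right panel gives the adjusted p of the same fits (edgeR), with a dashed line at 0.05. Red marks fits in which grm5a passed. The fold change stays between 0.75 and 0.90 while the adjusted p runs from 0.0110 to 0.168.

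The summed CPM of 6 spermatocyte markers (dmc1, hormad1, spo11, sycp1, sycp2 and sycp2l) was 463 to 559.7 in saline fish, 585 to 792 in rFsh fish and 579 to 608 in rLh fish. In the sum neither hormone group overlapped with saline. Single genes without overlap were 1.72% of all tested genes for rFsh and 2.1% for rLh. Those shares are not a background for a sum of 6 genes, and none was made for sums. In each marker alone both hormone groups overlapped with saline. The marker with the most reads, sycp1, was at 281 to 377 CPM in saline, 372 to 504 in rFsh and 320 to 413 in rLh fish. No marker of this list passed by edgeR, and DESeq2 called sycp1 and sycp2, both higher in rFsh, beside 2.93% of all tested genes. Log2 fold changes of the other markers in rFsh (edgeR) were 0.67 for dmc1, 0.42 for hormad1, -0.02 for spo11 and 0.03 for sycp2l. The part of spermatocyte number in the level of grm5a was not tested, and in RNA of whole testis a change in the number of cells of a type and a change in RNA per cell cannot be told apart.

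Other genes of the metabotropic glutamate class gave larger fold changes with more spread. The gene grm3, a receptor that lowers cyclic AMP through Gi, was at 1.07, 1.75, 1.56, 2.93 and 4.06 CPM in saline fish and at 6.94, 13.6, 6.41, 5.45 and 2.81 CPM in rFsh fish. In rLh fish it was at 2.84, 4.61, 8.85, 2.89 and 4.31 CPM. Of the rFsh fish 4 were above every saline fish, and rFsh 69 was within the saline range. The log2 fold change between rFsh and saline was 1.64 ± 0.43 (SE), with an adjusted p of 0.125 by edgeR. With DESeq2 it passed, at an adjusted p of 0.0132. In that fit 2 receptor genes were called, grm3 and grm5a, or 2.17% of the 92, against 2.93% of all tested genes.

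The gene grm4, also coupled to Gi, had a log2 fold change of 0.42 ± 0.16 in rFsh (adjusted p = 0.223, edgeR), with 7.48, 8.80, 8.86, 8.94 and 13.4 CPM in saline and 10.2, 12.7, 15.3, 11.7 and 13.3 CPM in rFsh fish. The highest saline fish, saline 68, lay within the rFsh range. Of the 9 metabotropic genes, 8 had log2 fold changes above 0 in rFsh, with a median of 0.21, and grm5a alone passed. The remaining one was grm1a, partner of grm5a in the Gq-coupled group, with 199, 159, 194, 128 and 95.8 CPM in saline, 159, 80.0, 156, 132 and 125 CPM in rFsh and 157, 84.0, 109, 124 and 128 CPM in rLh fish. Its groups overlapped throughout, and its log2 fold change in rFsh was -0.25 ± 0.22 (adjusted p = 0.575). In rLh, against the same saline fish, 8 of the 9 metabotropic genes were also above 0, with a median of 0.14. Of all tested genes 51.1% were above 0 in rFsh and 51.6% in rLh.

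**Figure D3:**
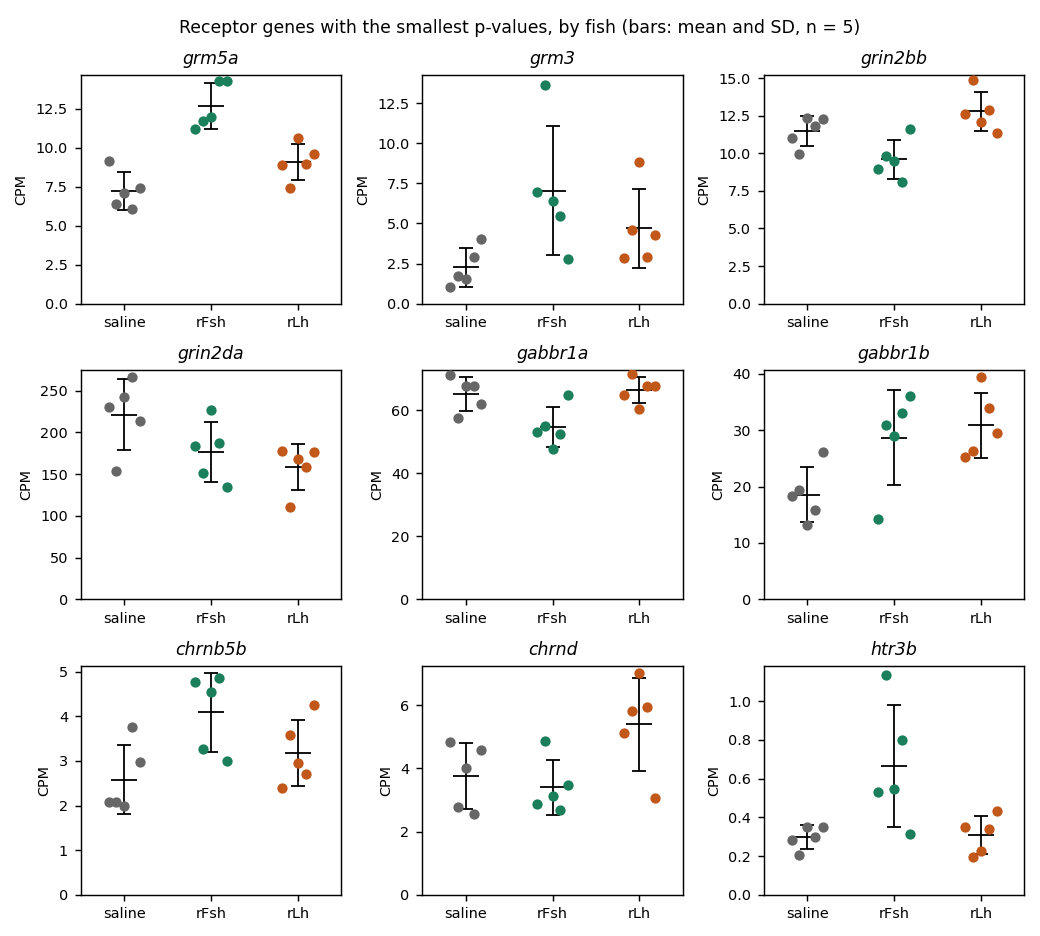
CPM of the 9 receptor genes with the smallest p-values in the 3 comparisons, with 1 point per fish and the mean and SD of 5 fish as bars. The 5 rFsh points of grm5a, from 11.2 to 14.3, lie above all saline points (6.09 to 9.14) and all rLh points (7.40 to 10.6), whereas the groups of the other 8 genes overlap.

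Among the ionotropic glutamate receptors no gene passed in rFsh. NMDA receptors need the subunit encoded by grin1, which has a pair of copies in the sole. The copy grin1b was at 17.0, 21.4, 29.9, 52.4 and 41.2 CPM in saline, 66.7, 75.3, 59.7, 49.4 and 33.1 CPM in rFsh and 24.2, 38.7, 37.8, 33.4 and 43.2 CPM in rLh fish. In it 3 rFsh fish were above every saline fish, and its log2 fold change was 0.81 ± 0.28 (adjusted p = 0.179). The AMPA subunit gria1a was lower in rFsh on average, at 7.63, 7.50, 6.22, 4.29 and 14.6 CPM against 12.5, 9.89, 15.1, 20.3 and 10.3 CPM in saline fish, and did not pass (log2 fold change -0.75 ± 0.27, adjusted p = 0.198). Of the rFsh fish only rFsh 69 was within the saline range.

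The kainate subunit grik5, which forms channels only with another subunit, was among the steadiest receptor genes. It was at 73.5, 77.9, 80.9, 83.9 and 83.9 CPM in saline, 78.3, 70.5, 69.8, 62.8 and 72.0 CPM in rFsh and 67.04, 76.1, 75.1, 62.1 and 79.1 CPM in rLh fish. Its log2 fold change in rFsh was -0.18 ± 0.08 (adjusted p = 0.256). The AMPA subunit gria4a, first in its class by mean CPM, was at 6.996 to 14.8 CPM in saline, 6.11 to 18.7 CPM in rFsh and 9.17 to 14.1 CPM in rLh fish. Its log2 fold changes were -0.03 in rFsh and 0.03 in rLh, each smaller than its SE of 0.26. The scaffold gene grid2ipb was at 69.9 to 109.7 CPM in saline, 73.0 to 144 CPM in rFsh and 65.9 to 103 CPM in rLh fish, and the log2 fold change in rFsh was 0.34 ± 0.19 (adjusted p = 0.378).

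GABA-B receptors pair a subunit that binds GABA (gabbr1) with one that couples to G proteins (gabbr2), and both copies of the first were expressed. The copy gabbr1a was at 71.4, 57.7, 67.6, 67.9 and 62.1 CPM in saline fish, 53.3, 54.9, 47.6, 52.6 and 65.0 CPM in rFsh fish and 64.8, 71.6, 60.5, 67.8 and 67.9 CPM in rLh fish. Of the rFsh fish 4 were below every saline and rLh fish, and rFsh 69 was within both ranges. The log2 fold change in rFsh was -0.26 ± 0.08 (SE), the smallest in size of the 5 genes with the lowest p, and did not pass (adjusted p = 0.171). The copy gabbr1b was at 18.4, 19.4, 13.2, 15.8 and 26.2 CPM in saline, 14.3, 30.9, 29.0, 33.1 and 36.1 CPM in rFsh and 25.3, 26.3, 39.4, 33.9 and 29.5 CPM in rLh fish. In it the log2 fold change in rFsh was 0.63 ± 0.22 (adjusted p = 0.190), and rFsh 61 was the one rFsh fish below the highest saline fish. The partner gabbr2 lay at 0.03 on the log2 scale in rFsh, with an SE of 0.16.

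The balance of the gabbr1 copies was also compared as a ratio of counts within each fish, a comparison chosen after the values had been seen. The log2 ratio of gabbr1a to gabbr1b was 1.85 ± 0.44 in saline, 0.99 ± 0.51 in rFsh and 1.12 ± 0.33 in rLh fish (SD, n = 5). The difference from saline was -0.86 in rFsh and -0.72 in rLh, each with a two-sided exact permutation p of 0.0238. The ranges overlapped, and over the 30 ratio tests made for 10 pairs of copies the adjusted p was 0.317, so neither passed. No other pair gave a smaller p.

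Of the 13 GABA-A subunit genes none passed in rFsh. Their log2 fold changes had a median of 0.03, and 9 of the 13 were above 0. The alpha subunit gabra3 was at 3.04, 3.58, 3.66, 3.13 and 6.46 CPM in saline fish, 3.44, 6.001, 5.72, 3.27 and 3.52 CPM in rFsh fish and 3.43, 6.53, 4.63, 5.62 and 3.10 CPM in rLh fish. Saline 68 was the highest saline fish and lay above every rFsh fish, and the log2 fold change in rFsh was 0.13 ± 0.27 (adjusted p = 0.832). Of the 4 glycine receptor genes, the alpha subunit glra1 lay at 6.03, 9.44, 4.29, 5.81 and 7.78 CPM in saline and 3.34, 3.99, 1.74, 6.12 and 6.40 CPM in rFsh fish, with a log2 fold change of -0.61 ± 0.28 (adjusted p = 0.277).

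Nicotinic receptor genes had log2 fold changes above 0 in rFsh in 9 of 13 cases, with a median of 0.31, and none passed. The subunit gene chrnb5b was at 2.08, 2.07, 1.997, 3.75 and 2.98 CPM in saline, 4.78, 3.27, 4.55, 4.87 and 2.9995 CPM in rFsh and 2.39, 3.58, 2.96, 2.71 and 4.25 CPM in rLh fish. In rFsh 3 fish were above all saline fish, and the log2 fold change was 0.68 ± 0.22 (adjusted p = 0.167). The alpha subunit chrna2b, first in the class by mean CPM, was at 5.08, 6.10, 6.61, 8.70 and 6.85 CPM in saline and 14.2, 10.5, 8.15, 13.7 and 5.53 CPM in rFsh fish, with a log2 fold change of 0.65 ± 0.23 (adjusted p = 0.185). The beta subunit chrnb3a was the gene with the most negative fold change in rFsh, -0.997 ± 0.36 (adjusted p = 0.200). It was at 8.26, 5.28, 4.95, 5.83 and 3.67 CPM in saline and 5.003, 2.31, 0.929, 1.997 and 3.401 CPM in rFsh fish, with rFsh 61 alone inside the saline range.

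Serotonin, dopamine, adrenergic, muscarinic, histamine and opioid receptor genes numbered 31 in the tested set, and none passed in rFsh. The smallest p among them was that of htr3b, a subunit of the serotonin-gated channel. It was at 0.283, 0.203, 0.352, 0.299 and 0.351 CPM in saline, 0.531, 1.14, 0.548, 0.799 and 0.316 CPM in rFsh and 0.348, 0.196, 0.228, 0.339 and 0.434 CPM in rLh fish. In rFsh 4 fish were above every saline and rLh fish, at levels of at most 1.14 CPM. The log2 fold change was 1.08 ± 0.31 (adjusted p = 0.148). Only rFsh 62, at 60 counts, reached the count minimum. Saline fish had 14 to 37 counts and rLh fish 12 to 23. The gene was thus tested only because of an rFsh fish, so its p cannot tell a rise in rFsh from that selection. Its span overlaps usp28, a gene for a deubiquitinating enzyme, so its reads may in part belong to that gene. The muscarinic genes chrm3b (-0.72 ± 0.24, adjusted p = 0.172) and chrm5a (0.83 ± 0.31, adjusted p = 0.206) lay on opposite sides of 0 on the log2 scale, and chrm5a overlaps another annotated gene.

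None of the remaining class leaders by mean CPM passed in rFsh. Log2 fold changes were -0.16 ± 0.16 for the D2-like dopamine receptor drd3, whose span overlaps qtrt2, -0.21 ± 0.18 for the histamine receptor hrh1 and -0.14 ± 0.22 for the beta adrenergic receptor adrb2a. The mu opioid receptor oprm1 was at 10.5, 12.3, 5.83, 7.36 and 17.5 CPM in saline, 9.66, 15.6, 15.1, 17.8 and 13.2 CPM in rFsh and 12.3, 12.5, 16.9, 16.1 and 18.2 CPM in rLh fish, with a log2 fold change of 0.42 ± 0.25 in rFsh (adjusted p = 0.400). The alpha adrenergic receptor adra1aa, which mediates contraction of smooth muscle, was at 105, 70.5, 132, 147 and 60.5 CPM in saline and 77.9, 35.2, 133, 53.0 and 143 CPM in rFsh fish. Its rFsh fish included the lowest of the 15 values, and the log2 fold change was -0.22 ± 0.34 (adjusted p = 0.777).

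**Figure D4:**
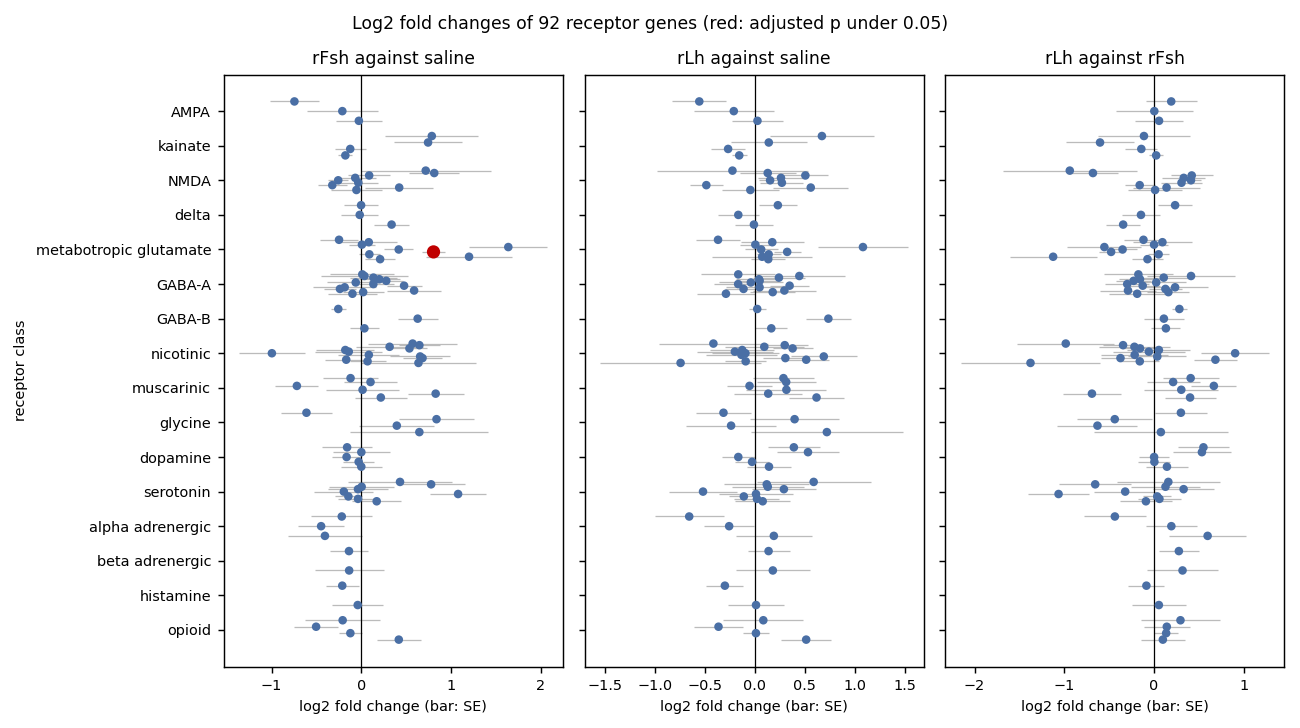
Log2 fold changes with SE of the 92 receptor genes by class, in a panel each for the rFsh effect, the rLh effect and the difference between hormones. The red point marks the only gene with an adjusted p under 0.05, grm5a at 0.80 in rFsh against saline. The first and second panels share their saline fish.

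The second comparison asks the same of rLh, against the same saline fish as before. No receptor gene passed (edgeR), and no gene of the 21227 did, a background of 0%. With DESeq2 0 receptor genes and 47 genes in all passed, a background of 0.221%. At an unadjusted p under 0.05 there were 7 receptor genes of 92 (7.61%), 6 higher and 1 lower, against 13.2% of all tested genes. The median log2 fold change was 0.08 over the receptor genes and 0.01 over all genes. Fold changes were above 0 in 59 of the 92 (64.1%) and in 51.6% of all genes. No receptor gene had rLh and saline groups that did not overlap, against 2.1% of all genes.

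The lowest p in rLh was that of gabbr1b, whose values are given above. In rLh 4 fish were above every saline fish, and rLh 63 was below saline 68. The log2 fold change was 0.74 ± 0.22 (SE; adjusted p = 0.344). The gene grin2da, an NMDA subunit that binds glutamate, had the next lowest p and was the 1 gene with a value below 0 among the 7. It was at 231, 153, 242, 267 and 214 CPM in saline, 184, 151, 227, 187 and 135 CPM in rFsh and 178, 111, 169, 158 and 177 CPM in rLh fish. The log2 fold change in rLh was -0.48 ± 0.17 (adjusted p = 0.344), and saline 64 lay within the rLh range.

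The other genes among the 5 lowest in rLh were grm5a, at 0.33 ± 0.13, grm3, at 1.08 ± 0.45, and chrnd, at 0.52 ± 0.23 on the log2 scale. Their adjusted p were 0.352, 0.352 and 0.359. The gene chrnd encodes the delta subunit of the nicotinic receptor of muscle. It was at 4.85, 2.78, 4.00, 2.57 and 4.60 CPM in saline fish, 2.87, 4.86, 3.12, 2.69 and 3.49 CPM in rFsh fish and 5.11, 5.83, 7.03, 5.94 and 3.06 CPM in rLh fish. In rLh 4 fish were above every saline and rFsh fish, and rLh 68 was within both ranges.

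The third comparison set the hormones against each other. No receptor gene passed (edgeR), and none of the 21227 did, a background of 0%. At an unadjusted p under 0.05 there were 10 receptor genes (10.9%), 5 higher in rLh and 5 lower, against 9.91% of all genes. The lowest p was that of grin2bb, an NMDA subunit that binds glutamate. It was at 11.02, 9.92, 12.4, 11.8 and 12.3 CPM in saline fish, 8.93, 9.81, 9.51, 8.10 and 11.6 CPM in rFsh fish and 12.6, 14.9, 12.1, 12.9 and 11.4 CPM in rLh fish. The log2 fold change of rLh against rFsh was 0.41 ± 0.11 (SE; adjusted p = 0.374), and rFsh 69 was the one rFsh fish above the lowest rLh fish. With DESeq2 grin2bb passed (adjusted p = 0.0413), the 1 receptor gene called, or 1.09% of the 92 against 0.636% of all genes.

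The gene grm5a came next, with a log2 fold change of -0.48 ± 0.13 in rLh against rFsh (adjusted p = 0.374). It was the 1 receptor gene whose rLh and rFsh groups did not overlap in either direction, against 1.54% of all genes. It was lower in rLh, as were 0.707% of all genes without overlap. The others among the 5 lowest were gabbr1a (0.28 ± 0.08), htr3b (-1.06 ± 0.34) and chrnd (0.68 ± 0.24). Their adjusted p were 0.400, 0.424 and 0.443. For htr3b only rFsh 62 reached the count minimum, so the same limit applies as against saline.

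The number of receptor genes called depended on which fish entered the fit. Without rFsh 69, 6 were called in rFsh against saline, against 4.72% of all genes. Of these, grm5a, grm3, htr3b and chrna2b were higher, and gabbr1a and gria1a lower. The gene htr3b reached the count minimum in rFsh 62 alone. Without saline 68, 4 were called, all higher (grm3, grm4, grm5a and grin1a), against 2.99% of all genes. The methods of the study give 4 fish per group, and the 12 fish whose normalized means match its tables leave out rFsh 62, rLh 68 and saline 68. On those 12 fish edgeR called no receptor gene in any comparison, against 0.0425% of all genes in rFsh, 0% in rLh and 0.0142% between the hormones. On these fish, receptor genes without overlap in either direction numbered 6 for rFsh against saline (8.07% of all genes), 9 for rLh against saline (15.6%) and 4 for rLh against rFsh (8.13%), and on all 15 fish with upper quartile factors 2 for rFsh against saline (1.68%).

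DESeq2 on the 12 fish, the test and number of fish of the study, called 7 of the 89 receptor genes that kept the minimum in rFsh (7.87%), against 5.87% of all genes. They were grm5a, grin1a, grm3, grm4, chrnb5b and gabbr1b, which were higher, and the kappa opioid receptor oprk1, which was lower. In rLh it called 10 (11.2%), against 10.6% of all genes, among them glrbb, gabbr1b, grin1a, chrnd, grm3 and oprm1, which were higher, and oprk1, adra1aa and grm1a, which were lower. Between the hormones it called 3 (3.37%), with chrnd and grin2bb higher and grm5a lower in rLh, against 3.19% of all genes. The shares of receptor genes were thus near those of all genes. The fold change of grin1a was 1.76 ± 0.42 on the log2 scale in rFsh with these 12 fish and 0.72 ± 0.72 by edgeR with 15. The 12 fish leave out saline 68 and rFsh 62, which had the highest grin1a values, 34.0 and 34.7 CPM.

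The spread between fish of a group was wider for the receptor genes, by its median, than for all tested genes. The median coefficient of variation of CPM was 28.2% in saline, 33.8% in rFsh and 20.3% in rLh fish over the 92, and 15.4%, 17.1% and 13.5% over all tested genes, which had higher counts. Over the 15 fish, 81 of the 92 genes spanned more than 2-fold, 47 more than 3-fold, 21 more than 5-fold and 7 more than 10-fold. The 7 were htr1ab, chrng, glrbb, grm6b, grin1a, grm3 and gabra2a. Of these, gabra2a reached the count minimum in rLh 64 alone and chrng in saline 68 and rFsh 62 alone. Their wide spans cannot be told from that selection. The share of all tested genes with such spans is not given. The 11 within 2-fold were chrne, gabbr1a, gabbr2, grik4, grik5, grin2bb, grm2b, grm6a, grm8a, htr4 and oprl1. The fish rFsh 69 held the highest of 15 values in 18 receptor genes, rLh 64 in 12 and rLh 63 in 0. No share over all tested genes is given for these counts, so they do not show a trait of receptor genes. Among the 18, chrnb3b reached the count minimum in rFsh 69 alone.

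Saline 68 and rFsh 62 stood apart in several genes of channel subunits. The gene grin1a was at 3.25, 3.35, 2.502, 3.41 and 34.0 CPM in saline, 5.61, 34.7, 6.60, 23.5 and 6.79 CPM in rFsh and 5.92, 14.9, 8.26, 6.04 and 4.21 CPM in rLh fish. Saline 68 stood far above the other saline fish, and rFsh 62 and rFsh 68 stood above the other rFsh fish. The glycine receptor beta subunit glrbb, which anchors the receptor to gephyrin, was at 0.754, 1.01, 0.761, 1.96 and 9.25 CPM in saline, 3.54, 10.6, 1.61, 5.01 and 0.976 CPM in rFsh and 2.79, 10.997, 4.52, 2.07 and 1.57 CPM in rLh fish. It was high in saline 68, rFsh 62 and rLh 64.

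The same pair of fish was high in 2 subunits of the muscle nicotinic receptor. Of these, chrng reached the count minimum in saline 68 (135 counts) and rFsh 62 (150 counts) alone. It was in the set only because of these fish, so its being high in them cannot be told from that selection. The alpha subunit chrna1 was at 1.45, 1.23, 1.66, 2.92 and 8.05 CPM in saline fish, 2.52, 9.31, 6.11, 3.14 and 1.99 CPM in rFsh fish and 1.82, 2.05, 2.34, 2.91 and 2.21 CPM in rLh fish. The gamma subunit chrng, which belongs to the embryonic form of that receptor in mammals, was at 0.335, 0.420, 0.228, 0.247 and 1.69 CPM in saline fish, 0.504, 2.84, 0.514, 0.563 and 0.301 CPM in rFsh fish and 0.398, 0.425, 0.425, 0.258 and 0.151 CPM in rLh fish. The epsilon subunit chrne, which replaces it in adult mammals, lay between 0.944 and 1.81 CPM in all 15 fish, and the beta subunit chrnb1 between 0.199 and 0.703 CPM. The 1 skeletal muscle marker that reached the minimum, acta1b, was at 0.249 to 1.14 CPM and was highest in rFsh 68. Among saline fish acta1b was highest in saline 68, and among rFsh fish rFsh 62 was below rFsh 68 alone. Both rFsh 68 and rLh 68 were above saline 68 and rFsh 62 in acta1b. The part of adhering muscle in these values was not tested.

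Other genes were high in single fish. The kainate subunit grik1a was at 53.4 CPM in rFsh 61 and 39.6 CPM in rLh 66, and between 7.28 and 16.4 CPM in the other 13 fish. The metabotropic gene grm6b, known from the bipolar cells of the mammalian retina, was at 61.2 CPM in rFsh 69 and between 4.33 and 18.6 CPM in the other 14. With that fish its log2 fold change in rFsh was 1.20 ± 0.48 (adjusted p = 0.228). For both genes the fish that stood apart lay in hormone groups, and neither gene passed a test.

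The Gi-coupled serotonin receptor htr1ab and the Gq-coupled muscarinic receptor chrm3a, each first in its class by mean CPM, were highest in the same fish as each other. The gene htr1ab was at 15.97, 15.3, 5.24, 1.91 and 29.7 CPM in saline fish, 16.9, 19.7, 5.59, 38.6 and 11.2 CPM in rFsh fish and 17.8, 12.9, 16.7, 40.2 and 14.4 CPM in rLh fish. The gene chrm3a was at 29.8, 28.3, 16.9, 18.6 and 56.3 CPM in saline fish, 39.5, 29.4, 19.98, 46.2 and 25.6 CPM in rFsh fish and 31.0, 34.8, 36.0, 52.0 and 32.3 CPM in rLh fish. Both were highest in saline 68, rFsh 68 and rLh 67 of their groups. Among 5 markers of Leydig cells, the steroid-producing cells of the testis, insl3, a hormone gene, and hsd3b1, a steroid dehydrogenase gene, were highest in these 3 fish too. The gene insl3 was at 231, 127, 114, 114 and 543 CPM in saline fish, 388, 448, 248, 923 and 159 CPM in rFsh fish and 299, 361, 356, 523 and 275 CPM in rLh fish. None of the other 3 markers was highest in all of these fish. The cholesterol transport gene star was highest in saline 68, rFsh 61 and rLh 67, star2 in saline 68, rFsh 68 and rLh 66, and hsd3b7 in saline 64, rFsh 64 and rLh 66, with saline 68 and rLh 67 the lowest of their groups for hsd3b7. The gene hsd3b7 entered the list only through the start of its symbol, hsd3b, and whether it marks Leydig cells was not examined. The summed CPM of the 5 Leydig markers ran from 837 to 2385 in saline, 944 to 3165 in rFsh and 1497 to 2393 in rLh fish, and the part of Leydig cell number in the receptor values was not tested.

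**Figure D5:**
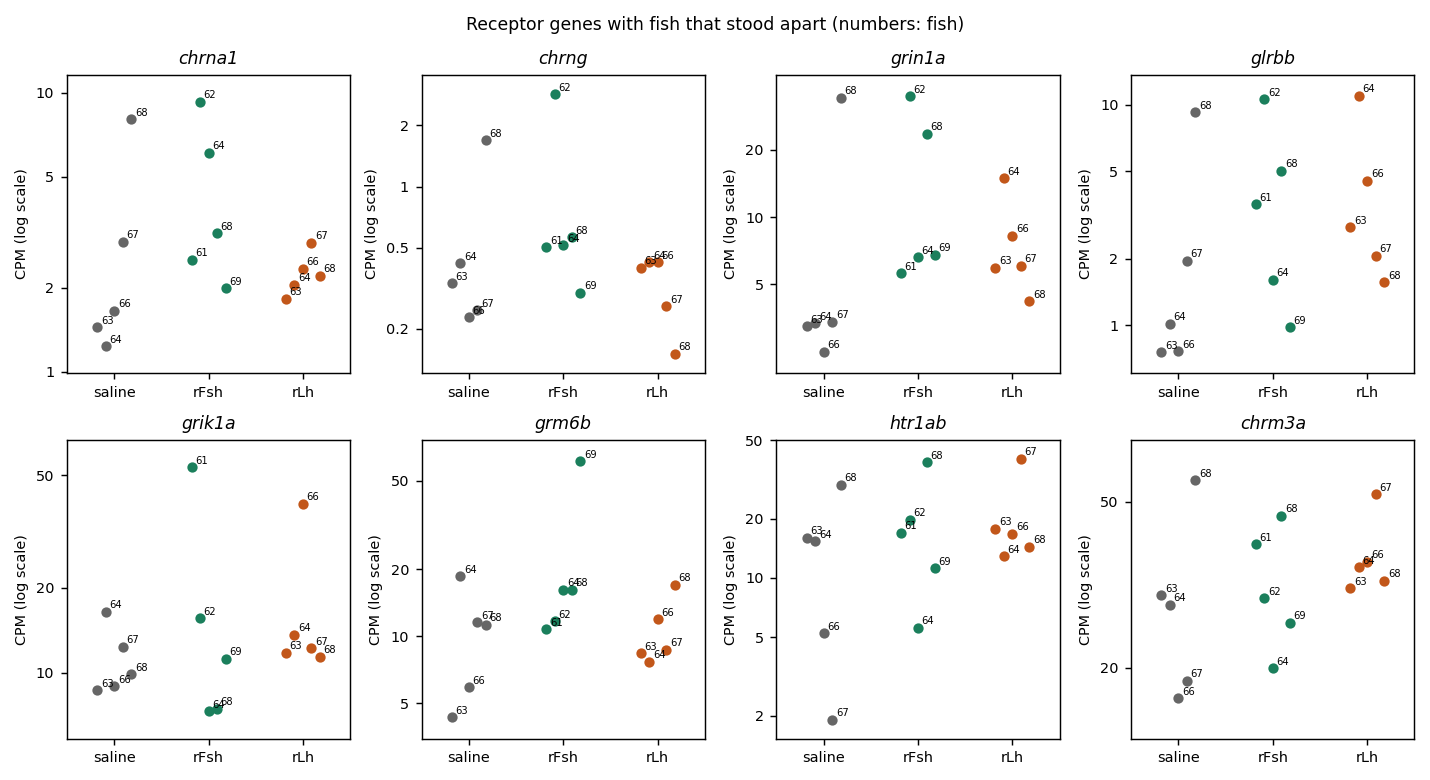
CPM on a log scale of 8 receptor genes chosen after their values were seen, with 1 point per fish and the fish number beside it. Saline 68 and rFsh 62 are the highest of their groups in chrna1, chrng, grin1a and glrbb, grik1a is high in rFsh 61 and rLh 66, grm6b in rFsh 69, and htr1ab and chrm3a in saline 68, rFsh 68 and rLh 67. The gene chrng reached the count minimum in saline 68 and rFsh 62 alone.

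Some receptor genes lie side by side in the genome (positions in the same assembly, on its linkage groups). In all, 9 neighbouring pairs, holding 17 of the 92 genes, were within 100 kb of each other. On LG7 the nicotinic genes chrnb4, chrna3 and chrna5 lie between 14414631 and 14456399, and the same genes are clustered in mammals. Their log2 fold changes in rFsh were 0.65 ± 0.33, 0.31 ± 0.38 and 0.54 ± 0.20, and none passed. A further 4 pairs joined GABA-A subunit genes, among them gabra3 with gabrb4 on LG13 and gabra6a with gabrb2a on LG17. On LG12 the nicotinic genes chrnb5b and chrnb3b were neighbours, as were the AMPA subunit gria2b and glrbb, 7.78 kb apart. The fold changes of gria2b and glrbb in rFsh were -0.21 ± 0.40 and 0.65 ± 0.77 on the log2 scale. The gene grm5a itself lies 48.5 kb from grik1a on LG13, with 3 annotated genes between. In grik1a the log2 fold change in rFsh was 0.78 ± 0.52, with the high value of rFsh 61 in it.

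Genes that make, carry or anchor the transmitters and receptors were counted in 5 lists of 56 genes. None passed in any comparison by edgeR. At an unadjusted p under 0.05 there were 11 in rFsh (9 higher, 2 lower), 6 in rLh (4 higher, 2 lower) and 6 between the hormones (4 higher in rLh, 2 lower), where 17.2%, 13.2% and 9.91% of all genes had such a p. With DESeq2, which called 2.93%, 0.221% and 0.636% of all genes, 2 passed in rFsh, grip1, a scaffold of AMPA receptors, and slc18b1, a vesicular polyamine transporter, both higher. It called 0 in rLh, and between the hormones tmem35, higher in rLh. The 24 genes of glutamate handling summed to 692 to 868 CPM in saline, 805 to 1033 CPM in rFsh and 799.8 to 912 CPM in rLh fish. Most of this sum was 1 gene, glud1b, at 362 to 486 CPM in saline, 415 to 677 CPM in rFsh and 420 to 567 CPM in rLh fish. For GABA and glycine handling (12 genes) the sums were 498 to 671, 429 to 699.997 and 459 to 712 CPM, with the most reads on slc6a9 and gabarapa. Acetylcholine handling (5 genes) ran from 15.3 to 20.3, 15.3 to 16.5 and 15.6 to 22.99 CPM, monoamine handling (12) from 61.3 to 97.9, 59.6 to 102.6 and 67.9 to 93.1 CPM, and opioid peptides (3) from 27.0 to 38.0, 24.6 to 47.1 and 27.0 to 34.2 CPM, in the same order of groups.

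Markers of the cells that could carry these receptors were read beside them, in 10 lists of 62 genes, and none passed by edgeR in any comparison. At an unadjusted p under 0.05 there were 18 in rFsh (12 higher, 6 lower), 7 in rLh (6 higher, 1 lower) and 7 between the hormones (3 higher in rLh, 4 lower), beside the same 17.2%, 13.2% and 9.91% of all genes. As a share of the 62, these counts lay above all genes in rFsh and between the hormones, and below in rLh. The lists were chosen with earlier results of these data known. DESeq2 called amh, kitb, sycp1 and sycp2 in rFsh and 0 in the other comparisons, beside 2.93%, 0.221% and 0.636% of all genes. The log2 fold changes of these genes in rFsh (edgeR) were -0.48, 1.27, 0.43 and 0.65, so that amh was lower and the others higher. The 13 neuronal markers summed to 90.3 to 116 CPM in saline, 84.6 to 125 CPM in rFsh and 103 to 125 CPM in rLh fish, and the 8 glial markers to 12.5 to 22.05, 16.6 to 23.3 and 15.9 to 21.0 CPM. Sertoli markers (5 genes) ran from 2288 to 3414, 2055 to 3424 and 2578 to 3023 CPM, spermatogonial markers (6) from 916 to 1294, 893 to 1395 and 951 to 1578 CPM, and spermatid markers (14) from 402 to 507, 387 to 512 and 423 to 536 CPM. Smooth muscle markers (3) ran from 639.7 to 758, 670.2 to 1002 and 508 to 972 CPM, and the red cell marker alas2 from 6.39 to 12.999, 3.50 to 22.1 and 8.28 to 53.7 CPM. Saline fish overlapped with both hormone groups in each of these lists.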

How the data were processed

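RNA-seq libraries of 15 testes (SMARTseq2-type, paired reads, no molecular identifiers) were analysed from raw counts per gene. The authors removed adapters with cutadapt 3.4 and aligned reads to the sole genome with Subread 2.0.1. The deposited counts per gene came from RSubread with default parameters, which use no strand. Reads of overlapping genes were thus not separated by strand, and overlap was judged on whole gene spans, not on exons. No column belonged to other samples. Genes with at least 50 counts in at least 1 fish (21227 of 28921) were tested with edgeR 4.0.16 (R 4.3.3, TMM factors, the newer of its quasi-likelihood tests, 3 groups in 1 fit, Benjamini-Hochberg adjustment, threshold 0.05), which was tested on simulated data. CPM used the TMM factors. Samples were grouped by the treatment label. The study describes the fish of a group as distinct males. In the main fit p-values rest on the spread between fish within groups, estimated from all 3 groups and with information shared between genes.

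Alternatives were DESeq2 1.42.0, other factors, other count minimums, robust estimation, fish number as a block, pairs of groups, 12 fish, and each fish left out in turn. Leaving out rFsh 62 and saline 68 together, the older form of the quasi-likelihood test and the ratios of gene copies were added after the data were seen. Receptor genes, gene lists and lists of cell markers were chosen with earlier results of these data known. Named genes were grm5a, any receptor gene called, the 5 lowest p-values per comparison and, for levels, the highest mean CPM per class. Others were chosen after their values were seen. A list symbol ending in a digit took only the suffixes a, b or l, a narrowing made on sight of the matches. Neither sequences nor transcript lengths were used here, so levels were not compared between genes. Some genes of the set are not reported here by name, though they count in its totals. The authors' tables of fold changes and p-values were not used.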

Additional observations from a re-analysis of the deposited data

Results flagged for a closer look

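In 26 of 276 groups of 5 fish (92 receptor genes in 3 groups; 9.42%), 1 fish lay farther from the others than Dixon's 95% value allows, against 7.86% of the groups over all tested genes. Chance flags about 1 in 20 groups where values are normally distributed, which CPM need not be. The genes adra2db, gabra2a and chrng reached the count minimum only in the fish flagged for them. Those flags cannot be told from that selection. Saline 68 was the fish in 8 of the 26, with grin1a at 34.0 CPM, gabbr2 at 45.7 CPM, grm4 at 13.4 CPM, glrbb at 9.25 CPM, chrna1 at 8.05 CPM, gabra3 at 6.46 CPM, chrng at 1.69 CPM and adra2db at 0.964 CPM, each the highest of its group. Of the other such groups, those of genes reported here follow. In rFsh 69, grm6b (61.2 CPM), htr1fa (3.09 CPM) and gabrb4 (0.875 CPM) stood high and hrh1 (1.06 CPM) low. In rLh 64, adrb3a (1.31 CPM) and gabra2a (1.01 CPM) stood high and grin2da (110.5 CPM) low.

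The remaining 9 were spread over other fish. In rLh 67, chrm3a (52.0 CPM) and htr1ab (40.2 CPM) were high. In rLh 68, grin3a was high at 22.7 CPM and gabra6b low at 1.36 CPM. In saline 64, htr1fa (2.86 CPM) and htr1d (1.36 CPM) were high. The kainate subunit grik1a was high in rFsh 61 (53.4 CPM) and in rLh 66 (39.6 CPM), and chrng was high in rFsh 62 (2.84 CPM).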

How the results depend on the processing

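For rFsh against saline, the count of receptor genes called was 1 with all 15 fish and edgeR. It was 2 with DESeq2 and 7 with DESeq2 on 12 fish. It was 0 with DESeq2 size factors in edgeR, with filterByExpr, with 50 counts in at least 5 fish, with only the 2 groups compared, with 12 fish in edgeR, without rFsh 62 and saline 68, and with the older quasi-likelihood form. Over all genes this comparison called 10, and 622 with DESeq2, 1242 with DESeq2 on 12 fish, 6 with upper quartile factors, 5 with DESeq2 size factors, 4 with filterByExpr, 1 with 50 counts in 5 fish, 3 with 2 groups and 1 with the older form. For rLh against saline, DESeq2 on 12 fish called 10 receptor genes, and all genes called were 47 with DESeq2 and 2237 with DESeq2 on 12 fish. For rLh against rFsh, DESeq2 called 1 receptor gene and 135 genes, DESeq2 on 12 fish called 3 and 675, and edgeR on 12 fish called 3 genes in all. The cause of these differences was not tested.

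Of the 92 receptor genes, those whose groups did not overlap numbered 2 with upper quartile factors (1.68% of all tested genes) and 6 with 12 fish (8.07% of all) for rFsh, 9 with 12 fish for rLh (15.6% of all), and 4 with 12 fish between the hormones (8.13% of all), where smaller groups overlap less often by construction. With each fish left out in turn, the receptor genes called ran from 0 to 6 for rFsh and were 0 in each of the other comparisons, all genes called ran from 1 to 998 for rFsh (998 without rFsh 69, 633 without saline 68), 0 to 2 for rLh and 0 to 20 between the hormones, and receptor genes without overlap ran from 1 to 8, 0 to 5 and 1 to 8, where the share of all tested genes ran from 2.17% to 7.7%, 2.4% to 9.43% and 1.79% to 8.12%. No named fold change reversed.

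Fish numbers showed no consistent pairing of rLh and saline fish. Deviations of same-numbered rLh and saline fish correlated above 0.1 in 1 of 5 pairs, number 63 (r = 0.48). The r values of the other pairs ran from -0.25 to 0.01. The rFsh group shared only 2 numbers with each other group, too few to decide on pairing. With the fish number as a replicate block, 0 receptor genes were called in each comparison, with 28, 2 and 12 genes called in all for rFsh, rLh and between the hormones. At the depth of these libraries 25 receptor genes had under 100 counts on average, and differences in them rest on few reads.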
